A study of Mus musculus with 10 samples.

Results

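The colony-stimulating factors and their receptors were examined in hippocampi of lesioned mice with and without myelin-specific T cells. The members are 8 genes: the ligands Csf1, Il34, Csf2 and Csf3, the CSF-1 receptor Csf1r, and the chains Csf2ra, Csf2rb and Csf2rb2 of the receptors for GM-CSF and its relatives. They were chosen by name, as every probe set of the array whose single platform symbol is one of them, and they comprise 15 of the 45037 probe sets tested and 8 of 18193 genes. The TPlp+AxL group consisted of 5 adult female SJL/J mice that received T cells specific for proteolipid protein (Plp), a major protein of myelin, before an axonal lesion. The AxL group consisted of 5 adult female SJL/J mice with the lesion alone. Mice of both groups were bought at 8 to 10 weeks of age, both were lesioned, and whole hippocampi were frozen for RNA at 2 days after the lesion, with 1 array for each mouse. The 10 arrays include neither unlesioned mice nor mice given T cells of another specificity, and the small number of arrays limits the precision.

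Colony-stimulating factors are secreted proteins that control the survival, growth and activation of myeloid cells. CSF-1 and interleukin-34 both bind the tyrosine kinase Csf1r, on which microglia, the resident macrophages of the brain, depend for survival. GM-CSF, the product of Csf2, is made by activated T cells among others, and binds the alpha chain Csf2ra, which signals together with the common beta chain Csf2rb. The common beta chain also serves the receptors for IL-3 and IL-5, while mice have a further beta chain, Csf2rb2, that serves IL-3. G-CSF, the product of Csf3, drives the production and release of neutrophils through its own receptor, Csf3r.

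Array median log2 values were 7.903 to 7.920 in TPlp+AxL and 7.875 to 7.900 in AxL. Every TPlp+AxL median thus lay above every AxL median, by a small amount. Of 6 markers of hippocampal subfields, 5 lay above the array median on all 10 arrays. Markers of the choroid plexus stood apart on 3 arrays, with mean log2 levels of 9.90 in TPlp+AxL 1, 10.61 in AxL 3 and 9.77 in AxL 5, against 8.52 to 8.62 on the other 7. Results are therefore also given without those 3 arrays, a setting chosen after the data were seen.

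Of the 15 member probe sets, 3 rose and 0 fell in TPlp+AxL at an adjusted p under 0.05 (limma, Benjamini-Hochberg over all 45037 probe sets). All 3 belong to the beta chain genes Csf2rb and Csf2rb2, and no probe set of the other 6 genes passed. Over the whole array 0.835% of probe sets passed in either direction and 0.646% rose. That is 291 higher and 85 lower, a split that became 269 and 210 with arrays centred on their medians and 348 and 43 after cyclic loess normalization, while the 3 member calls held in both. The groups did not overlap in 3 member probe sets, 1 each of Csf2rb, Csf2rb2 and Csf3, where 3.59% of all probe sets showed such a separation. The median log2 change of the 15 was 0.03, beside -0.003 for all probe sets. In these bulk samples more cells of a type and more RNA per cell cannot be told apart.

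**Figure D1:**
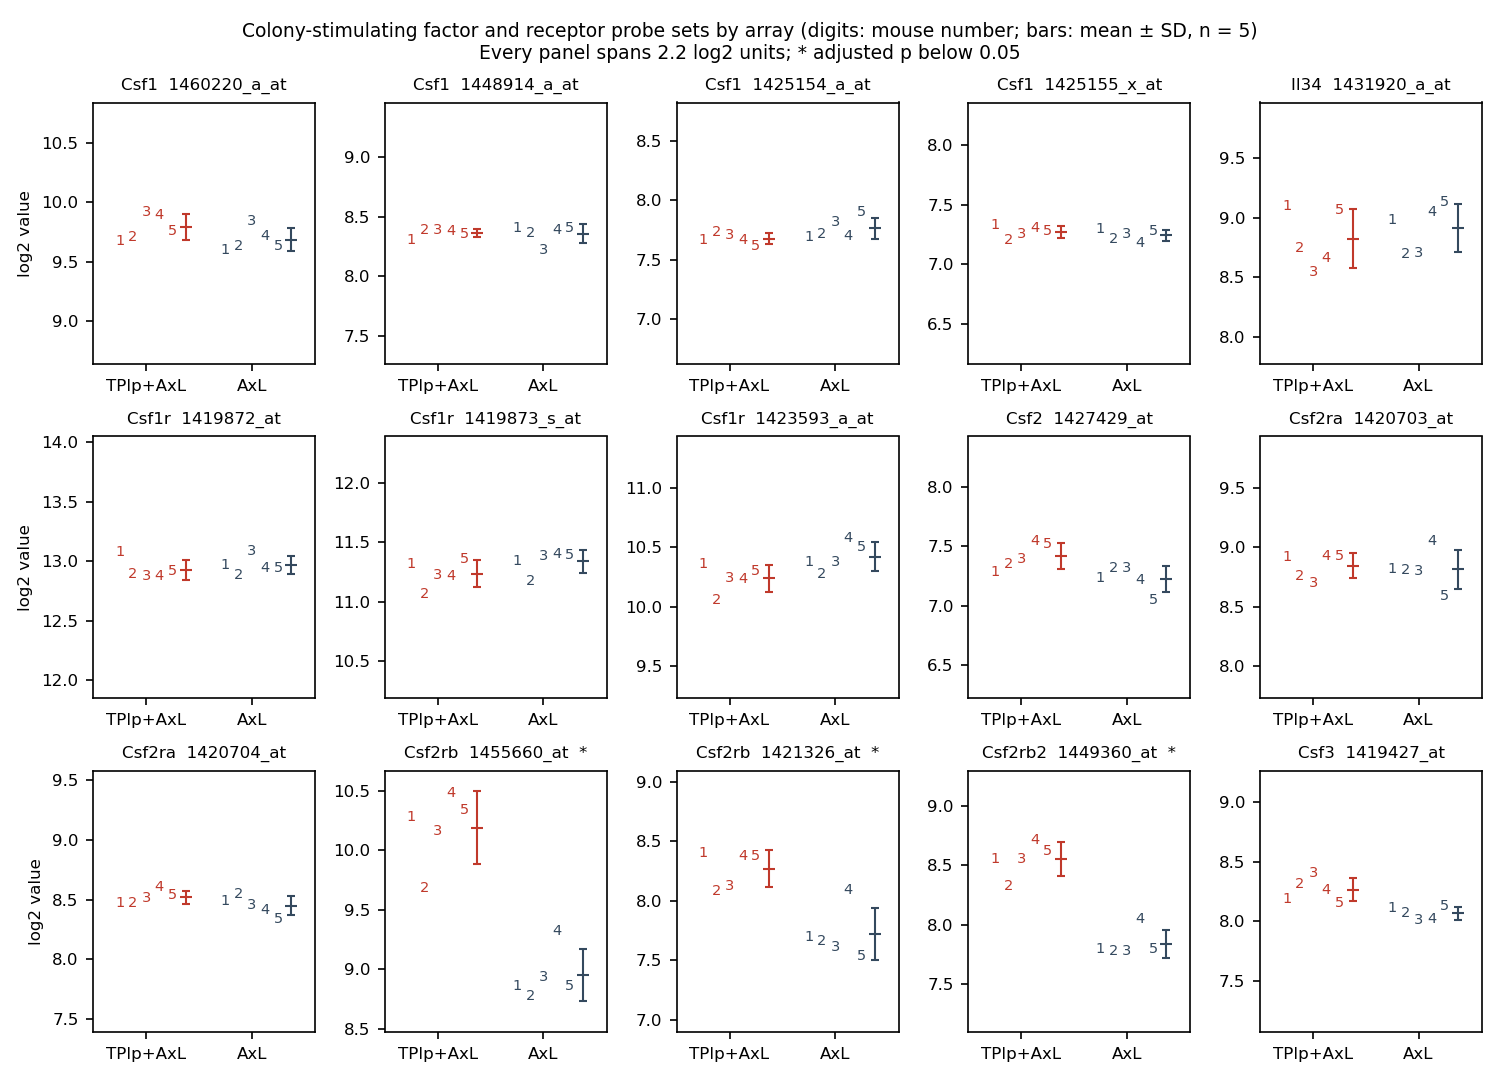
Deposited log2 value (vertical axes, all spanning the same range) of the 15 member probe sets in each mouse, TPlp+AxL in red on the left and AxL in dark blue on the right; digits are mouse numbers, bars are the mean ± SD (n = 5), and asterisks mark an adjusted p below 0.05. The 2 probe sets of Csf2rb and that of Csf2rb2 carry the asterisks, and AxL 4 is the highest AxL mouse in each of them.

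**Figure D2:**
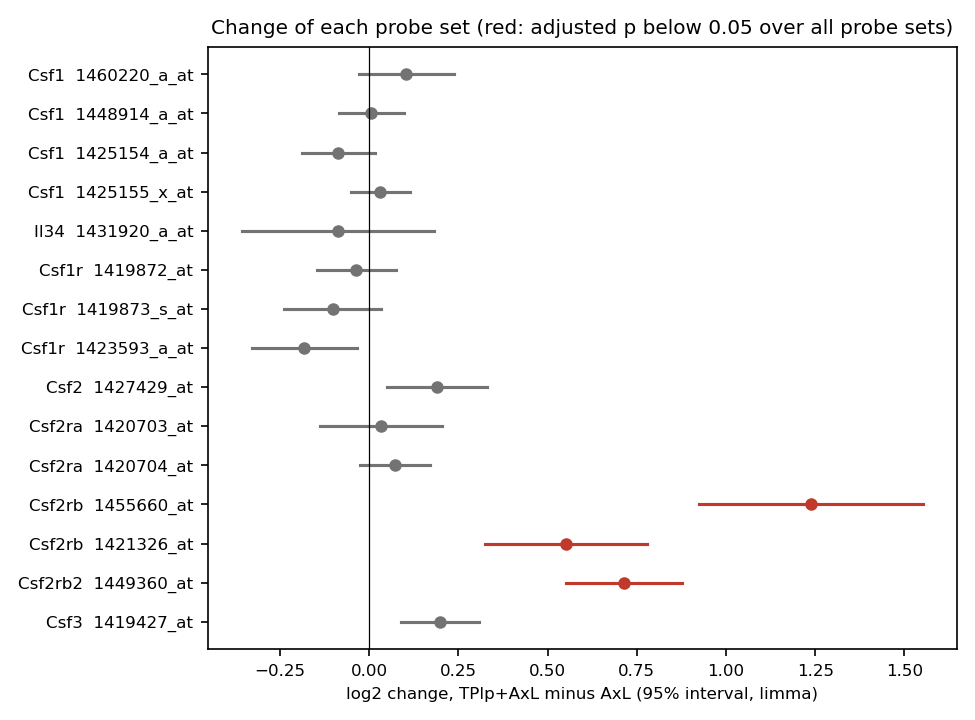
Log2 change (TPlp+AxL minus AxL, horizontal axis) of each member probe set with its 95% interval from limma; red marks an adjusted p below 0.05. The 3 beta chain probe sets lie from 0.55 to 1.24, and the other 12 lie between -0.18 and 0.20.

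Csf2rb encodes the signalling chain shared by the GM-CSF, IL-3 and IL-5 receptors, and its brighter probe set (1455660_at) had the largest change of the family. Log2 values were 10.28, 9.68, 10.16, 10.48 and 10.34 in TPlp+AxL mice 1 to 5, against 8.86, 8.77, 8.94, 9.32 and 8.86 in AxL mice 1 to 5. Every TPlp+AxL array lay above every AxL array, with a gap of 0.36 between TPlp+AxL 2, the lowest of its group, and AxL 4, the highest of its own. The means were 10.19 ± 0.31 in TPlp+AxL and 8.95 ± 0.22 in AxL (SD, n = 5 each), a 2.36-fold difference with a 95% interval of 1.90 to 2.93 (log2 change 1.24, SE 0.14, limma adjusted p = 0.00224). With each array left out in turn the log2 change stayed between 1.17 and 1.37 and passed each time. Without the 3 arrays with choroid plexus signal the log2 change was 1.18, with a limma p of 0.000363 and an adjusted p of 0.153.

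The dimmer Csf2rb probe set (1421326_at) moved the same way by a smaller amount. Its log2 values were 8.40, 8.08, 8.12, 8.37 and 8.38 in TPlp+AxL mice 1 to 5, against 7.69, 7.66, 7.61, 8.09 and 7.54 in AxL mice 1 to 5. The groups touched at 1 point, where AxL 4 lay just above TPlp+AxL 2, and the other 4 AxL mice were all lower than any TPlp+AxL mouse. Those 4 values lay below the array medians, and whether they were above background was not tested. The log2 change was 0.55 (SE 0.10, limma adjusted p = 0.0332), or 1.47-fold. This call was lost in 8 of the 10 fits with 1 array left out, where limma adjusted p lay between 0.0516 (TPlp+AxL 3 left out) and 0.109 (TPlp+AxL 4 left out). It held when AxL 4 (0.00376) or TPlp+AxL 2 (0.0286) was the array left out. The log2 change lay between 0.51 and 0.65 in those 10 fits, and it was 0.42 without the 3 arrays with choroid plexus signal (limma adjusted p = 0.38).

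Csf2rb2, the beta chain of the mouse IL-3 receptor, was measured by 1 probe set (1449360_at). Log2 values were 8.55, 8.32, 8.55, 8.71 and 8.62 in TPlp+AxL mice 1 to 5, against 7.79, 7.78, 7.78, 8.04 and 7.79 in AxL mice 1 to 5. Of the AxL mice, 4 lay close together and AxL 4 stood above them, still 0.28 below the lowest TPlp+AxL mouse. Those 4 values lay below the array medians, and whether they were above background was not tested. The means were 8.55 ± 0.14 in TPlp+AxL and 7.84 ± 0.12 in AxL (SD, n = 5 each), a 1.64-fold difference with a 95% interval of 1.46 to 1.84 (log2 change 0.71, SE 0.07, limma adjusted p = 0.00154). It passed with each array left out, with log2 changes of 0.67 to 0.77. Without the 3 arrays with choroid plexus signal the log2 change was 0.68, with a limma p of 0.000160 and an adjusted p of 0.130.

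Csf2rb and Csf2rb2 are neighbours on chromosome 15, with 0 annotated genes between them, and are close in sequence, so their probe sets may share signal. A further probe set (1450200_s_at), whose ending marks transcripts of several genes, is listed for both and was not counted for either. Its log2 values were 8.69, 8.77, 8.74, 8.69 and 8.68 in TPlp+AxL mice 1 to 5, against 8.67, 8.71, 8.56, 8.62 and 8.57 in AxL mice 1 to 5. The groups overlapped, and the log2 change of 0.09 (95% interval 0.00 to 0.17) did not pass (limma adjusted p = 0.340). The probe set that both genes share by annotation thus did not show the difference seen in the 3 others.

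The size of the change was compared within arrays for 3 pairs of genes with exact permutation tests (two-sided), whose smallest possible p is 0.00794. The brighter Csf2rb probe set rose more than Csf2rb2 by 0.52 on the log2 scale (exact p = 0.00794, 0.0119 adjusted over the 3 pairs), and the within-array differences of the groups did not overlap. With the dimmer Csf2rb probe set the order was turned, with a difference of -0.16 (exact permutation test, adjusted p = 0.0834), so which beta chain changed more depended on the probe set.

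The alpha chain Csf2ra, which binds GM-CSF, did not pass in either of its 2 probe sets. The brighter (1420703_at) had log2 values of 8.92, 8.76, 8.70, 8.93 and 8.93 in TPlp+AxL mice 1 to 5, against 8.82, 8.81, 8.81, 9.05 and 8.59 in AxL mice 1 to 5. The AxL mice spanned the whole TPlp+AxL range, from AxL 5 at the bottom to AxL 4 at the top. Its log2 change was 0.03, with a 95% interval of -0.14 to 0.20 (limma adjusted p = 0.871). Leaving out AxL 5 gave -0.02. The other probe set (1420704_at) ran from 8.47 to 8.60 in TPlp+AxL and from 8.34 to 8.55 in AxL, with a log2 change of 0.07 (95% interval -0.03 to 0.17, limma adjusted p = 0.480). By the brightest probe sets the change of Csf2ra was lower than that of Csf2rb by a log2 difference of -1.21 (exact permutation p = 0.00794, 0.0119 adjusted over the 3 pairs), with no overlap between groups. The same difference was -0.48 with the dimmer probe set of each gene (exact permutation test, adjusted p = 0.0714). Without the 3 arrays with choroid plexus signal, the difference of the beta chain pair was 0.50 (exact permutation p = 0.0571) with the brightest probe sets. That of this pair was -1.24 (exact permutation p = 0.0286). Neither passed after adjustment over the 3 pairs (0.0857 for each). With 4 against 3 mice 0.0286 is the smallest p this test can give. The missing call of this pair therefore cannot tell a weaker difference from fewer mice.

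**Figure D3:**
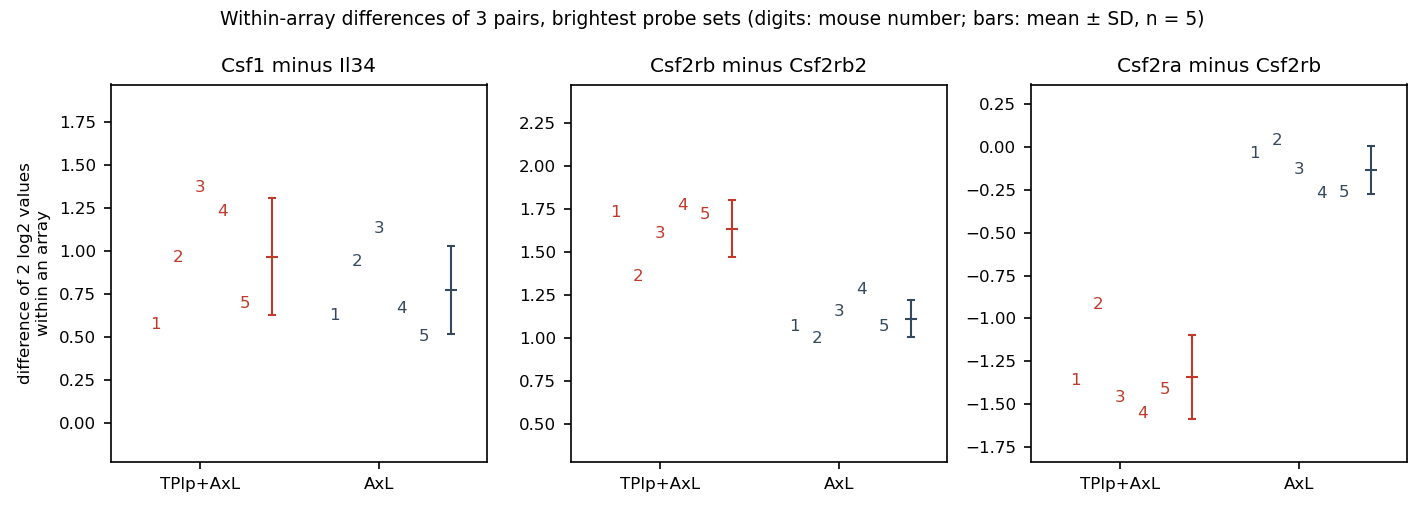
Within-array difference of 2 log2 values (vertical axes) for Csf1 minus Il34, Csf2rb minus Csf2rb2 and Csf2ra minus Csf2rb, brightest probe set of each gene, TPlp+AxL in red on the left and AxL in dark blue on the right; digits are mouse numbers and bars the mean ± SD (n = 5). Only the shift between groups is meaningful, since levels of different probe sets are not comparable: it is 0.19 with overlap, 0.52 without overlap and -1.21 without overlap.

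The promoters of a beta chain that rose, Csf2rb2, and of an alpha chain that did not pass, Csf2ra, are printed to set a receptor chain with a change beside one without a call. These chains belong to different receptors, of IL-3 and of GM-CSF. RefSeq start-site windows, from 250 bases before to 50 bases after the start, were matched by symbol for 4 of the 8 genes, Csf1, Csf2, Csf2ra and Csf2rb2, on build GRCm38.p6. The Csf2rb2 window lies at chr15:78305672-78305971 and the Csf2ra window at chr19:61228369-61228668, both on the minus strand and printed 5′ to 3′ along the gene. Both strands were searched for GAGGAAGT, a form of the element of the myeloid factor PU.1, for TTCNNNGAA, the GAS element that STAT proteins bind, and for GAAANNGAA, a core of the ISRE element of interferon-regulated genes. Capitals mark matches.
Csf2rb2: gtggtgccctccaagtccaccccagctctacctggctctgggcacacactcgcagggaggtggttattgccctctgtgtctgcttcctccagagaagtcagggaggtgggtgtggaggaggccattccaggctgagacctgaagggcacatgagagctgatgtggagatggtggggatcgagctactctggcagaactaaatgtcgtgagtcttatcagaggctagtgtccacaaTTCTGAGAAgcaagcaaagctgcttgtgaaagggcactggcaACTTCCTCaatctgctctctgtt
Csf2ra: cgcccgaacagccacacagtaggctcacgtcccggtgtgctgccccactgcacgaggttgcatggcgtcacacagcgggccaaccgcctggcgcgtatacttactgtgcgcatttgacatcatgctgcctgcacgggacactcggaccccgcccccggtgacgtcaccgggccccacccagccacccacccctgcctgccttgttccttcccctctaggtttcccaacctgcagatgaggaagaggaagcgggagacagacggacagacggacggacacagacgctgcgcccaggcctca

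The Csf2rb2 window held 1 GAS match beginning 15 bases before the start and 1 PU.1 match on the opposite strand beginning 27 bases after it, which do not overlap. The Csf2ra and Csf1 windows held no match to any of the 3, and the Csf2 window held 1 ISRE match. The Csf2ra window does hold gaggaaga and gaggaagc, which differ from the searched GAGGAAGT only in the last letter. The PU.1 difference between the printed windows thus rests on that letter. Of 32851 promoter windows of this length, 8.30% held the GAS letters, 3.20% the PU.1 letters and 8.56% the ISRE letters. A match describes the letters and is not evidence of binding.

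Csf2, the gene of GM-CSF, did not pass, although its limma p before adjustment was 0.0127. Log2 values of its single probe set (1427429_at) were 7.28, 7.35, 7.39, 7.54 and 7.51 in TPlp+AxL mice 1 to 5, against 7.23, 7.32, 7.32, 7.21 and 7.05 in AxL mice 1 to 5. The top 4 values were TPlp+AxL mice, while TPlp+AxL 1 lay among the AxL mice. The log2 change was 0.19 (SE 0.06, 95% interval 0.05 to 0.33, limma adjusted p = 0.224), or 1.14-fold. All 10 values lay below the array medians, and the table holds no detection calls, so whether the transcript was above background was not tested.

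Csf3, the gene of G-CSF, was the other ligand with a limma p under 0.05 before adjustment only. Its probe set (1419427_at) had log2 values of 8.19, 8.32, 8.40, 8.27 and 8.15 in TPlp+AxL mice 1 to 5, against 8.11, 8.07, 8.01, 8.02 and 8.12 in AxL mice 1 to 5. All TPlp+AxL mice lay above all AxL mice, by 0.03 at the closest point. Its log2 change of 0.20 (SE 0.05, 95% interval 0.09 to 0.31), or 1.15-fold, did not pass over all probe sets (limma adjusted p = 0.113, and 0.00217 before adjustment). Its limma adjusted p ran from 0.0667 to 0.26 over the alternative settings with at most 1 array left out, and was 0.376 without the 3 arrays with choroid plexus signal. Csf3r, the receptor of G-CSF, which neutrophils carry, had a log2 change of -0.06 (limma adjusted p = 0.591).

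CSF-1 and interleukin-34, the ligands of Csf1r, gave no call. Csf1 has 4 probe sets. The brightest (1460220_a_at) had log2 values of 9.67, 9.71, 9.91, 9.89 and 9.76 in TPlp+AxL mice 1 to 5, against 9.60, 9.63, 9.84, 9.72 and 9.63 in AxL mice 1 to 5, a log2 change of 0.10 (95% interval -0.03 to 0.24, limma adjusted p = 0.447). AxL 3 lay above 3 of the 5 TPlp+AxL mice, so the groups overlapped. The 3 others differed in sign, with log2 changes of 0.01 (1448914_a_at, limma adjusted p = 0.958), -0.09 (1425154_a_at, 0.415) and 0.03 (1425155_x_at, 0.719), all with overlapping groups. The last carries the ending that marks probes shared with other sequences. The first of these was below 0 after each array's median was subtracted (-0.02), after repeated quantile normalization (-0.01) and without AxL 3 (-0.03).

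Il34, which neurons express in the forebrain, varied widely between mice in both groups (SD 0.25 in TPlp+AxL and 0.20 in AxL). Its probe set (1431920_a_at) had log2 values of 9.10, 8.75, 8.54, 8.66 and 9.06 in TPlp+AxL mice 1 to 5, against 8.98, 8.69, 8.71, 9.05 and 9.13 in AxL mice 1 to 5. Both groups had high and low mice over much the same range. The log2 change was -0.09 (SE 0.12, 95% interval -0.36 to 0.18; limma adjusted p = 0.761), a 95% interval of 0.781-fold to 1.13-fold. The changes of Csf1 and Il34 differed by 0.19 on the log2 scale, within the spread between mice (exact permutation p = 0.325, adjusted p = 0.325).

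Csf1r, the receptor of both, was negative in all 3 probe sets and passed in none. The brightest (1419872_at) had log2 values of 13.08, 12.89, 12.88, 12.88 and 12.92 in TPlp+AxL mice 1 to 5, against 12.97, 12.89, 13.09, 12.94 and 12.95 in AxL mice 1 to 5, a log2 change of -0.04 (95% interval -0.15 to 0.07, limma adjusted p = 0.760). TPlp+AxL 1 and AxL 3, both with choroid plexus signal, were the highest, while AxL 5, also with that signal, lay at the AxL median. The next (1419873_s_at) ran from 11.06 to 11.36 in TPlp+AxL and from 11.18 to 11.40 in AxL, with a log2 change of -0.10 (limma adjusted p = 0.459). The dimmest (1423593_a_at) had log2 values of 10.36, 10.06, 10.24, 10.23 and 10.30 in TPlp+AxL mice 1 to 5, against 10.38, 10.27, 10.38, 10.58 and 10.50 in AxL mice 1 to 5. TPlp+AxL 2 was the lowest of all and the groups overlapped, with a log2 change of -0.18 (95% interval -0.33 to -0.04, limma adjusted p = 0.26, and 0.0194 before adjustment). The sign of Csf1r depended on the scaling: after repeated quantile normalization the log2 changes were 0.10 and 0.00 for the first 2 probe sets, and after cyclic loess normalization the first was 0.10, while the dimmest stayed below 0 in all alternatives. Microglia carry Csf1r, and of 9 measured microglial markers 0 passed the threshold in limma and 2 were positive, with a median log2 change of -0.11. Other cell types also lay low: 0 of 8 neuronal (median -0.18), 0 of 6 endothelial (-0.24) and 1 of 6 astrocyte markers (-0.08) were positive. Medians of the monocyte and macrophage, neutrophil and T cell markers were above 0. Over all genes 6778 of 18193 were positive (median -0.03).

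The other chains and ligands that use the beta subunits, named for that role, gave no call. IL-3 (Il3, log2 change 0.04, limma adjusted p = 0.651) and IL-5 (Il5, -0.05, limma adjusted p = 0.559) had overlapping groups. Their alpha chains Il3ra (0.14, limma adjusted p = 0.0919) and Il5ra (0.05, limma adjusted p = 0.490) did not pass either, but all TPlp+AxL mice lay above all AxL mice for Il3ra. All values of Il3, Il5, Il3ra and Il5ra lay below the array medians, as for Csf2. Whether these transcripts were above background was not tested.

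The gene lists below were chosen with earlier results of these data known, so their counts only describe these arrays. Of 23 measured genes among the receptor partners and signalling genes, 2 rose and 0 fell, with a median log2 change of 0.04. With 1 probe set taken for each gene, the brightest, 0.978% of all genes rose and the median of all genes was -0.03. They were Socs3, which feeds back to dampen cytokine receptors (log2 change 1.24, limma adjusted p = 0.00780), and Pim1, a kinase induced through STAT proteins (0.73, limma adjusted p = 0.0161). The other Socs3 probe sets also rose (0.57, limma adjusted p = 0.0327, and 1.25, limma adjusted p = 0.00795), whereas a second Pim1 probe set had 0.11 (limma adjusted p = 0.182). Only 1 of them passed when AxL 5, TPlp+AxL 3 or TPlp+AxL 4 was left out.

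Among 9 measured myeloid transcription factors 1 rose, Irf8, a factor of monocytes and microglia. Its log2 change was 0.65 (limma adjusted p = 0.0204), and a second probe set had 0.37 (limma adjusted p = 0.00956). With 1 array left out the count of this list stayed at 1 when that array was AxL 2, AxL 4 or TPlp+AxL 2, and was 0 for each of the other 7. Among 13 measured regulators of colony-stimulating factor expression 4 rose and 0 fell, with a median log2 change of 0.14. They were the inflammatory cytokines Il6 (1.70, limma adjusted p = 0.00221), Il1b (1.11, limma adjusted p = 0.00171) and Il1a (0.35, limma adjusted p = 0.00963), and Il17a (0.28, limma adjusted p = 0.0245), the cytokine of T helper 17 cells. Of 12 genes known to respond to GM-CSF or G-CSF in myeloid cells 4 rose and 0 fell, with a median of 0.24: the lectin receptor Clec7a (1.83, limma adjusted p = 0.00114), the neutrophil calcium-binding proteins S100a9 (1.18, limma adjusted p = 0.0161) and S100a8 (1.14, limma adjusted p = 0.0185), and the neutrophil collagenase Mmp8 (0.24, limma adjusted p = 0.0370). That count was 2 when AxL 1 was left out and 1 when TPlp+AxL 4 was. Without the 3 arrays with choroid plexus signal 0 genes of these 4 lists passed in limma, where 1 probe set of the whole array did, that of the macrophage gene Chil3 (named after its value was seen), and 4743 had an unadjusted p under 0.05.

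**Figure D4:**
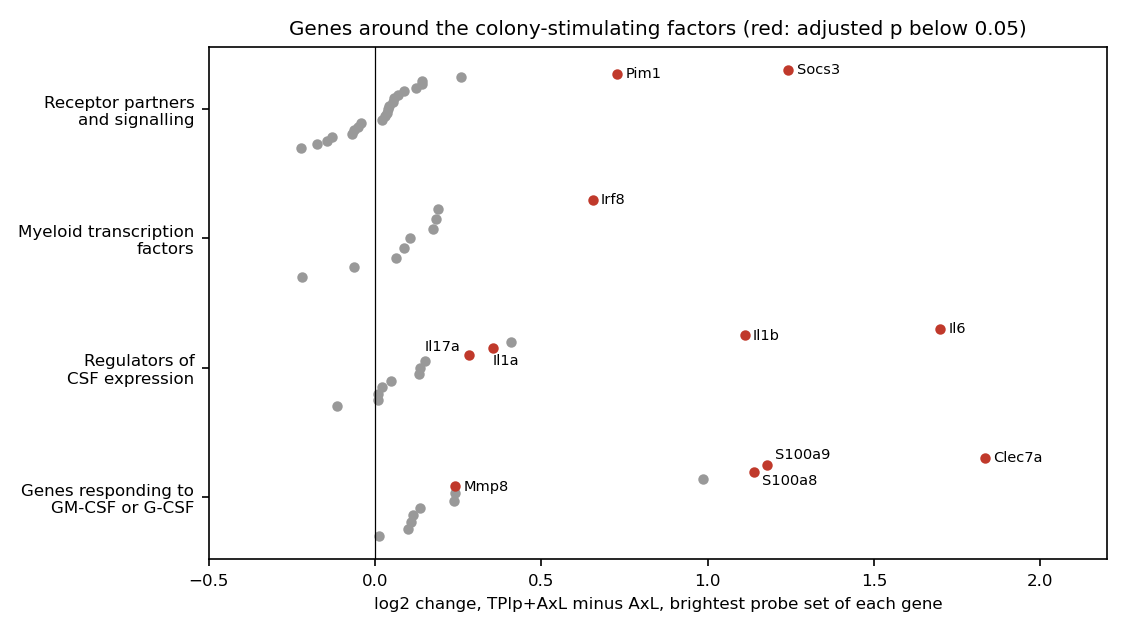
Log2 change (TPlp+AxL minus AxL, horizontal axis) of the measured genes of 4 lists, each by its brightest probe set; red named points have an adjusted p below 0.05 and grey points do not. The red points run from Mmp8 at 0.24 to Clec7a at 1.83, and 0 genes of these lists fell.

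Some markers of myeloid cells and T cells also rose, and most did not pass. The mean log2 level over 10 markers of monocytes and macrophages was 9.18 to 9.47 in TPlp+AxL and 8.51 to 8.89 in AxL. Of these 10, 4 rose: Chil3, Plac8, Lyz2 and Cybb. Cd68 had a log2 change of -0.27 (limma adjusted p = 0.221). Ccr2 did not pass by its brightest probe set (0.13, limma adjusted p = 0.296). Its dimmer probe sets had 0.48 (limma adjusted p = 0.00956), 0.23 (0.0168) and 0.08 (0.436). Over 9 neutrophil markers the mean level was 8.27 to 8.36 in TPlp+AxL and 7.89 to 8.12 in AxL, with 3 of 9 rising. These are S100a8, S100a9 and Mmp8, the same genes already counted above as responding to GM-CSF or G-CSF. The neutrophil granule genes Ngp, Camp, Ltf and Elane had log2 changes between -0.05 and 0.08. Over 8 T cell markers the mean level was 7.81 to 8.05 in TPlp+AxL and 7.52 to 7.66 in AxL, with 2 of 8 rising. Over 9 microglial markers it was 9.28 to 9.58 in TPlp+AxL and 9.44 to 9.65 in AxL. Of all genes 0.978% rose. TPlp+AxL 2, the lowest of its group for Csf2rb and Csf2rb2, also had its lowest monocyte and macrophage (9.18) and microglial (9.28) levels. TPlp+AxL 5 had the next lowest monocyte and macrophage level (9.25). Yet its values of Csf2rb (1455660_at, 10.34) and Csf2rb2 (8.62) were above those of all TPlp+AxL mice except TPlp+AxL 4. AxL 4, the highest of its group for both genes, had a monocyte and macrophage level of 8.68, within the other AxL mice. Its microglial (9.65), neuronal (12.39) and astrocyte (12.41) levels were the highest of the 10 arrays, and its T cell level (7.52) was the lowest. AxL 4 also had the lowest array weight (0.36) and the lowest mean correlation with the other arrays (0.99). The part of these cell types in the results was not tested.

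Across the 10 arrays the probe set most like Csf2rb was that of Csf2rb2 (Pearson r = 0.996, n = 10). The next were Myd88, an adaptor of Toll-like receptors (r = 0.991), and Gbp2, an interferon-induced GTPase (r = 0.986). For Csf2rb2 they were Csf2rb (r = 0.996), another probe set of Gbp2 (r = 0.985) and Cytip, a leukocyte protein that interacts with cytohesin (r = 0.985). These values include the difference between the groups and were the highest among all named probe sets, so they describe the arrays only.

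**Figure D5:**
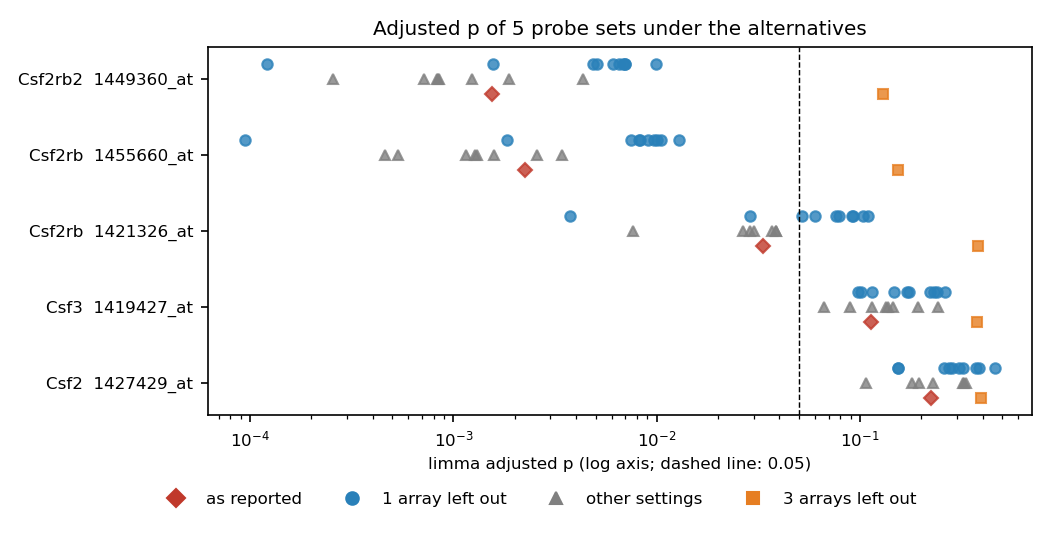
Limma adjusted p (log axis) of 5 probe sets as reported (diamonds), with 1 array left out (circles), under the other planned settings (triangles) and without the 3 arrays with choroid plexus signal (squares); the dashed line is 0.05. Csf2rb 1455660_at and Csf2rb2 1449360_at stay left of the line except for the square, Csf2rb 1421326_at crosses it in 8 of 10 circles, and Csf3 and Csf2 stay right of it.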

How the data were processed

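Biotin-labelled RNA of whole hippocampi was hybridised to Affymetrix arrays, per the labels' protocols. The deposited values are log2 intensities summarised by RMA (per the submitters' processing notes); which program ran it was not given in the sources used here. Of 45101 probe sets, 64 Affymetrix controls were left out and 45037 were tested with no filter or further normalization. Platform symbols (34945 probe sets with 1 symbol, 932 with several, 9160 with none) were updated through Entrez identifiers (34741 matched) with RefSeq's mouse table of GRCm38.p6. Of the list genes, 8 had no named probe set and were not analysed here.

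The difference between TPlp+AxL and AxL was fitted with limma 3.58.1 (lmFit, eBayes) under R 4.3.3, p-values were adjusted by Benjamini-Hochberg across the array, and the script was tested on simulated data. "Rose" and "fell" are used only at an adjusted p under 0.05. Log2 changes are TPlp+AxL minus AxL values. The 3 pairs of genes were compared by exact permutation tests. Nothing says whether mice shared a cage or litter, so p-values measure only the spread between these mice. All member probe sets are named, with up to 4 genes of each list that passed and the 3 probe sets most correlated with Csf2rb and Csf2rb2. Il3, Il5, Il3ra, Il5ra, Csf3r and the neutrophil granule genes were added for their role. Cd68 and Ccr2 were added after their values were seen. The members and lists were chosen with earlier results of these data known.

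The alternatives were a trended robust variance, leaving out the dimmer 50% of probe sets, median, quantile and cyclic loess normalization, array weights, a replicate block, 1 probe set per gene, an adjusted p under 0.10, each array left out in turn and, added later, 3 arrays with choroid plexus signal left out.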

Additional observations from a re-analysis of the deposited data

Results flagged for a closer look

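In 5 of 30 groups of 5 values, 1 mouse lay far from the rest of its group by Dixon's test, where chance flags about 1 in 20. AxL 4 was high for Csf2rb2 (8.04, next 7.79) and for the dimmer Csf2rb probe set (8.09, next 7.69). Without AxL 4 the log2 changes were 0.77 for Csf2rb2 (limma adjusted p = 0.00156) and 0.65 for that Csf2rb probe set (limma adjusted p = 0.00376). AxL 3 was low for Csf1 probe set 1448914_a_at (8.22, next 8.36). TPlp+AxL 1 was high for Csf1r probe set 1419872_at (13.08, next 12.92), and AxL 2 was low for Csf1r probe set 1419873_s_at (11.18, next 11.34).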

How the results depend on the processing

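The setting without the 3 arrays with choroid plexus signal, where all 3 member calls were lost, is not counted here and is given below. Over 260 values of the 15 member probe sets under the other alternative settings, 243 kept their sign and their side of the threshold. Another 8 lost the call, all for Csf2rb probe set 1421326_at with 1 array left out. The last 9, in 5 probe sets, changed sign without a call on either side. Those signs changed for Csf1 1448914_a_at with medians subtracted (-0.022), quantile normalization (-0.006), without AxL 3 (-0.028) and without TPlp+AxL 2 (-0.000; range with 1 array left out -0.028 to 0.020), for Csf1 1425155_x_at with quantile normalization (-0.000), for Csf1r 1419872_at with quantile (0.101) or cyclic loess normalization (0.099), for Csf1r 1419873_s_at with quantile normalization (0.003) and for Csf2ra 1420703_at without AxL 5 (-0.023; range -0.023 to 0.092). The count of member probe sets past the threshold was 2 to 3 with 1 array left out, and 376 probe sets in all became 185 to 460, 753 with array weights, 757 at an adjusted p under 0.10 and 241 with the replicate block. Deviations of same-numbered mice from their group means had correlations of both signs, from -0.224 to 0.363, and were not tested. With the replicate block all 3 member calls held (Csf2rb 1455660_at limma adjusted p = 0.00343). The difference between Csf2rb and Csf2rb2 was 0.492 to 0.594 and that between Csf2ra and Csf2rb -1.311 to -1.153 with 1 array left out, and -0.163 and -0.480 with the next brightest probe sets.

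Without the 3 arrays with choroid plexus signal, a smaller comparison of 4 against 3 mice chosen after the data were seen, 1 probe set passed in limma in all and 0 of the members, of which 7 had an unadjusted p under 0.05. Csf1 1448914_a_at was then -0.010 and Csf2ra 1420703_at -0.063. The differences were 0.499 and -1.243 (exact permutation p = 0.0571 and 0.0286, adjusted p = 0.0857 for both), where 0.0286 is the smallest p possible with so few mice.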
